A study of Mus musculus with 6 samples.

Results

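Matrix metalloproteinases (MMPs), ADAMTS proteases and tissue inhibitors of metalloproteinases (TIMPs) were followed in the anterior prostate of mice that carried an active Notch1 in the prostatic epithelium and of their controls. The members were all genes with a symbol of the form Mmp, Adamts or Timp followed by a number, which gave 46 of the 54532 rows with a gene symbol: 23 Mmp, 19 Adamts and 4 Timp genes. The overexpression group (OEx) was Pbsn-Cre Rosa26 N1ICD/+, in which Cre under the probasin promoter releases the Notch1 intracellular domain, together with Egfp, from the Rosa26 locus in prostatic epithelial cells. The control group (Ctrl) carried the same Rosa26 N1ICD/+ allele without Cre, and its label reads wild type. Each group held 3 male mice of 20 weeks, with 1 RNA-seq library of total RNA from the anterior prostate of each mouse. Whole tissue was sequenced, so fewer cells of a type and less RNA per cell cannot be told apart in any value below.

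MMPs are zinc-dependent proteases that are made as inactive precursors and cut collagens, laminins, fibronectin and many non-matrix proteins. ADAMTS proteases are secreted relatives with thrombospondin-type repeats, which cut proteoglycans such as versican, trim procollagens or act on microfibrils. TIMPs bind the active site of MMPs, and Timp3 also acts on ADAMTS proteases. In glands Mmp7 (matrilysin) is made mainly by the epithelium itself, whereas most other MMPs and ADAMTS proteases are products of stromal and immune cells.

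Levels are given as FPKM, the fragments per kilobase of transcript scaled to a total for each library, which permits comparison between genes. How these totals compare with the reads is given below. Differences are log2 fold changes of FPKM + 1, OEx minus Ctrl, with the standard error (SE) and false discovery rate (FDR) from limma, fitted across the 12553 rows whose average over the 6 mice reached 1 FPKM. A gene was called when its FDR was under 0.05 and its change exceeded 2-fold, the criteria of the study's methods. By these criteria 28.2% of all tested rows were called, 12.8% higher (1604 rows) and 15.5% lower (1941 rows) in OEx.

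The targeted gene, Notch1, was read at 41.9, 47.6 and 78.9 FPKM in OEx 1 to 3 and at 5.18, 5.55 and 3.34 FPKM in Ctrl 1 to 3 (log2 fold change 3.30, SE 0.268, limma FDR 9.91e-05). Between 14772005 and 18655462 reads lay on annotated genes in each library, and 3 reads corresponded to 0.161 to 0.203 CPM (reads scaled to the library total). The totals behind the FPKM values were 1.22 to 1.34 times these reads in OEx and 0.726 to 0.815 times in Ctrl. Scaling instead to the FPKM sum of each library, named library totals in the fits below, turned the calls over all rows to 4367 higher and 446 lower. In each group replicates 1 and 2 were much closer to each other than to replicate 3, although they differed by more than counting noise. Such a difference cannot show whether these libraries are independent, which the SDs, SEs and FDRs below assume. Ctrl 3 held 1.31% of its reads on 8 seminal vesicle genes, against at most 3.25e-04% in the other mice, and a sum of 2724 FPKM over 8 smooth muscle markers, against 1277 to 1301 FPKM in Ctrl 1 and 2. OEx 3 held 18.8 FPKM over 8 fibroblast markers against 77.0 and 78.7 FPKM in OEx 1 and 2, and 16.04 FPKM over 8 leukocyte markers against 205 and 189 FPKM. In Ctrl the fibroblast sums were 59.6, 60.5 and 117 FPKM and the leukocyte sums 30.6, 32.2 and 70.6 FPKM. Lyz2 alone was at 171, 155 and 7.79 FPKM in OEx and at 22.0, 23.8 and 54.7 FPKM in Ctrl. In OEx 3, Lyz2 and Cd68 were below every Ctrl mouse, whereas Ptprc was above every Ctrl mouse. None of the 8 fibroblast markers was called, whereas all 8 smooth muscle markers and all 4 basal epithelial markers were called lower in OEx, the basal sum lying at 6.79 to 15.9 FPKM in OEx and 212 to 249 FPKM in Ctrl. The luminal epithelial markers, all 8 of them above the filter, summed to 3845 to 7049 FPKM in OEx and 17785 to 21552 FPKM in Ctrl. The part that these differences in markers played in the values of single members was not tested, except where a value without the library is given.

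Of the 46 genes, 45 had a value above 0 in at least 1 mouse and Mmp1b was listed at 0 in all 6. Of the 16 that passed the filter, 2 were called higher (Timp4 and Timp1), 4 were called lower (Mmp7, Timp2, Mmp8 and Mmp17) and 10 were not called. Of all tested rows, 12.8% were called higher and 15.5% lower. Their median log2 fold change was -0.11, beside -0.074 over all tested rows. The values of the groups did not overlap for 7 of the 16 genes, 2 above and 5 below Ctrl, whereas they did not overlap for 72.5% of all tested rows (33.6% above and 38.9% below). By the FDR alone, with no fold criterion, 7 of the 16 genes and 67.4% of all tested rows passed.

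The TIMPs changed in composition. Timp4 and Timp1 were higher, Timp2 was lower, and Timp3 did not pass the test. Timp2 made up 76.6 to 80.3% of the summed Timp FPKM in Ctrl and 25.3 to 31.0% in OEx. The summed level of the 4 genes was 110, 109 and 69.5 FPKM in OEx and 63.4, 63.4 and 89.1 FPKM in Ctrl, and these ranges overlapped.

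Timp4 (chromosome 6, 115241892 to 115252205, minus strand, GRCm38) was read at 19.0, 19.3 and 28.7 FPKM in OEx and at 1.87, 1.80 and 1.44 FPKM in Ctrl. Every OEx mouse was far above every Ctrl mouse, and OEx 3 was the highest of all. The mean was 22.3 ± 5.55 FPKM (SD, n = 3) in OEx and 1.70 ± 0.230 FPKM (SD, n = 3) in Ctrl, a 13.1-fold difference (log2 fold change 3.09, SE 0.173, limma FDR 3.46e-05). Its share of the Timp sum was 1.62 to 2.95% in Ctrl, 17.2 and 17.7% in OEx 1 and 2 and 41.3% in OEx 3. Timp4 lies inside Syn2, which reached at most 1.06 FPKM in any mouse.

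Timp1 (chromosome X, 20870166 to 20874735, plus strand) encodes a secreted inhibitor of most soluble MMPs. It was read at 54.6, 54.9 and 9.23 FPKM in OEx and at 4.95, 5.04 and 7.86 FPKM in Ctrl. The OEx values were all above the Ctrl values, but OEx 3 lay close to Ctrl 3 and far below OEx 1 and 2. The log2 fold change was 2.21 (SE 0.657, limma FDR 0.0219). The call was lost when OEx 1, OEx 2, Ctrl 1 or Ctrl 2 was left out, with FDR values of 0.0626 to 0.0679, and without OEx 3 the log2 fold change was 3.03 (FDR 1.72e-04). With limma-voom on reads recovered from the FPKM values, a test described further on, it was 2.39 with an FDR of 0.0838. Of the Timp sum, Timp1 made up 49.5 and 50.3% in OEx 1 and 2, 13.3% in OEx 3 and 7.81 to 8.81% in Ctrl.

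**Figure D1:**
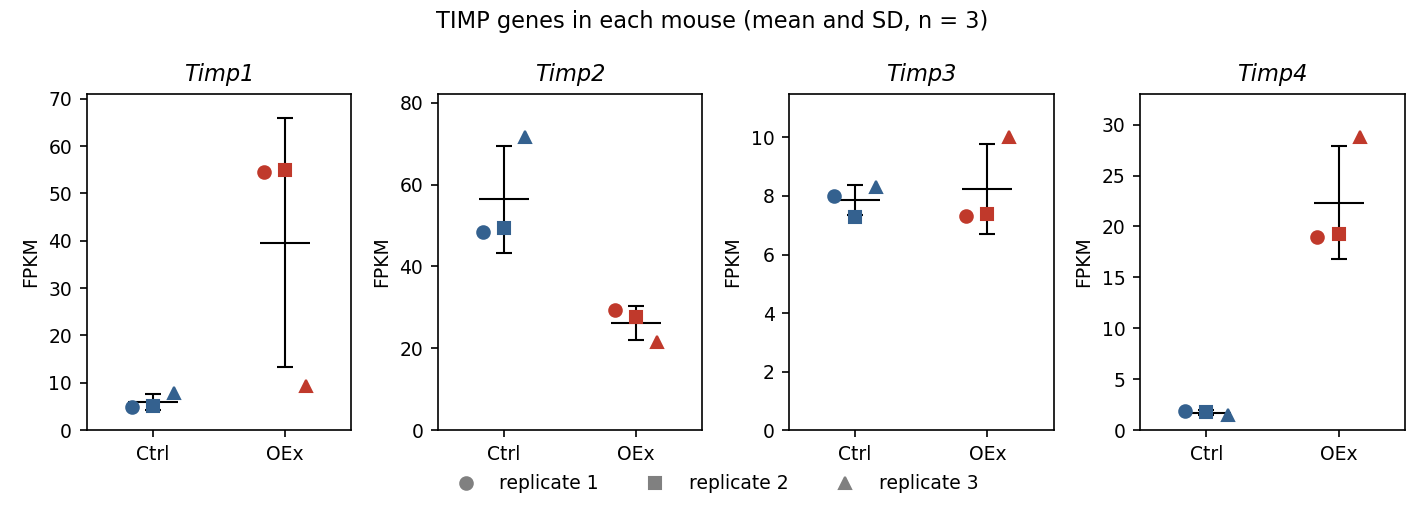
FPKM of Timp1 to Timp4 in each of the 3 OEx and 3 Ctrl mice on a linear axis from 0, 1 point per mouse shaped by replicate number, with bars for the mean and SD (n = 3). Timp4 lay at 19.0 to 28.7 FPKM in OEx and 1.44 to 1.87 FPKM in Ctrl, Timp2 was lower in every OEx mouse, and Timp1 in OEx 3 (9.23 FPKM) stood apart from OEx 1 and 2.

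Timp2 (chromosome 11, 118301069 to 118355740, minus strand), which both inhibits MMPs and takes part in the activation of pro-Mmp2 by Mmp14 at the cell surface, was read at 29.5, 27.6 and 21.5 FPKM in OEx and at 48.5, 49.3 and 71.5 FPKM in Ctrl. All OEx values were below all Ctrl values. The log2 fold change was -1.07 (SE 0.187, limma FDR 0.00234). It fell short of the 2-fold criterion without OEx 3 (-0.94, FDR 0.00664) and without Ctrl 3 (-0.89, FDR 0.00291). Timp3, the matrix-bound inhibitor that also acts on ADAM and ADAMTS proteases, was read at 7.32, 7.39 and 9.999 FPKM in OEx and at 7.99, 7.28 and 8.29 FPKM in Ctrl, and the groups overlapped (log2 fold change 0.050, SE 0.132, limma FDR 0.754).

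**Figure D2:**
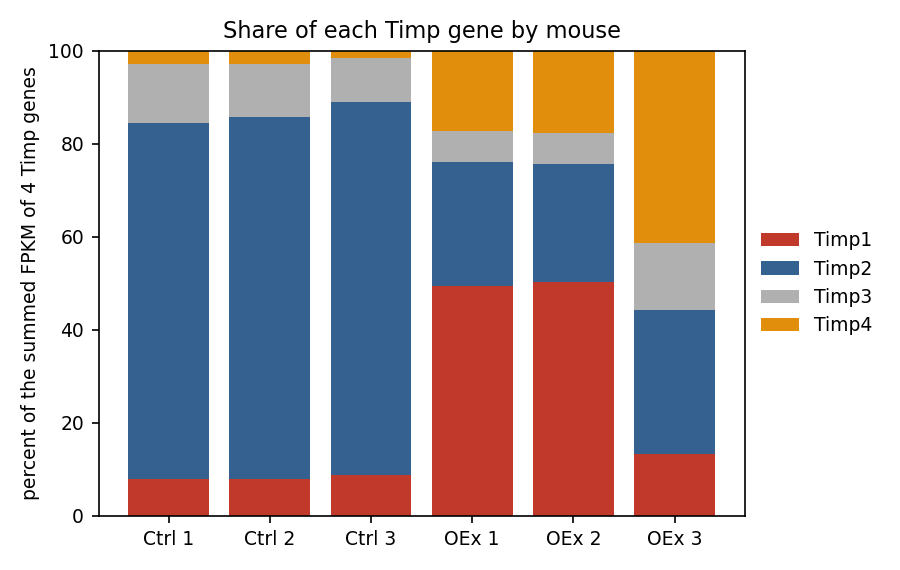
Share of the summed Timp FPKM held by each of the 4 Timp genes, as stacked bars from 0 to 100% for each mouse. Timp2 held 76.6 to 80.3% in Ctrl and 25.3 to 31.0% in OEx, where Timp1 held the largest share in OEx 1 and 2 and Timp4 in OEx 3 (41.3%).

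The promoters of the 2 TIMPs called higher are shown because Notch1 acts in the nucleus with the DNA-binding protein RBPJ. Each window, from RefSeq on GRCm38.p6, runs 5′ to 3′ on the strand of the gene from 250 bases before to 50 bases after the start, and capitals mark the RBPJ core motif TGGGAA, searched on both strands. The Timp4 window is chr6:115252156-115252455 (minus strand) and the Timp1 window is chrX:20869916-20870215 (plus strand). The letters were found at position -158 from the start of Timp1 and were not in the Timp4 window. They were present in 10 of the 35 member promoters and in 25.6% of 32851 mouse promoters of the same length, and a match describes the sequence only.

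Timp4: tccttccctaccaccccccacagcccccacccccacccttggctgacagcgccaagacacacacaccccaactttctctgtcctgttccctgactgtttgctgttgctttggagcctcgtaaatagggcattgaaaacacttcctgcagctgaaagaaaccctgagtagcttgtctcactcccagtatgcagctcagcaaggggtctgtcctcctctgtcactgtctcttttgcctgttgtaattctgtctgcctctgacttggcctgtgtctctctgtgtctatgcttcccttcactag

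Timp1: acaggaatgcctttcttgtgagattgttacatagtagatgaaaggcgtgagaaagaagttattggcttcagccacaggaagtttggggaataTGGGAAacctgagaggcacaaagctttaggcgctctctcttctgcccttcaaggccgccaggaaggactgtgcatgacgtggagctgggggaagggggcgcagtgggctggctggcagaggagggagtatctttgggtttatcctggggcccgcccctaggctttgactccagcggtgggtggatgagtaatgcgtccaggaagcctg

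Mmp7 was the most abundant member. It made up 91.9 to 94.6% of the summed FPKM of all 46 genes in Ctrl and 79.6 to 86.0% in OEx. Mmp7 (chromosome 9, 7692090 to 7699585, plus strand) was read at 1332, 1255 and 531 FPKM in OEx and at 2724, 2730 and 2203 FPKM in Ctrl. Every OEx mouse was below every Ctrl mouse, and OEx 3 was the lowest. The means were 1039 ± 442 FPKM (SD, n = 3) in OEx and 2552 ± 302 FPKM (SD, n = 3) in Ctrl, 2.46-fold higher in Ctrl (log2 fold change -1.40, SE 0.357, limma FDR 0.0119). Without OEx 3 it was -0.97 with an FDR of 0.00167, just short of the 2-fold criterion. Scaled to library totals the difference was -0.50 (FDR 0.281), and all rows then had a median of 0.66, which left Mmp7 -1.16 relative to that median. Timp2, Mmp8 and Mmp17 likewise kept their direction but not their calls under this scaling (-0.19, -0.69 and -0.49). Without Mmp7, the other Mmp genes together came to 93.3, 102 and 60.4 FPKM in OEx and to 87.5, 85.2 and 91.2 FPKM in Ctrl, and the groups overlapped. The ratio of this sum to the Timp sum was 0.846 to 0.930 in OEx and 1.02 to 1.38 in Ctrl.

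Mmp7 is the last gene of a cluster of 10 members on chromosome 9 that begins with Mmp13 at position 7272514. Of these 10, 9 were above 0 and 3 passed the filter, of which Mmp7 and Mmp8 were called lower and Mmp3 was not called. Mmp8, a collagenase best known from neutrophils, was read at 0.434, 0.721 and 0.297 FPKM in OEx and at 2.57, 2.68 and 1.63 FPKM in Ctrl, which corresponded to 21, 40 and 13 reads and to 78, 84 and 60 reads. The groups did not overlap (log2 fold change -1.14, SE 0.185, limma FDR 0.00163). The 6 neutrophil markers, all under the filter, summed to 0 FPKM in Ctrl 1 and 2 and 0.145 FPKM in Ctrl 3, and to 0.106 to 0.672 FPKM in OEx. In Ctrl, S100a8, Ly6g, Elane and Cxcr2 were listed at 0 in every mouse, and S100a9 and Mpo held 1 read each in Ctrl 3. The part of neutrophils in the Mmp8 value was not tested.

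Mmp3 (stromelysin-1), which cuts matrix proteins and activates other MMPs, was read at 3.37, 3.45 and 0.154 FPKM in OEx and at 0.178, 0.129 and 0.365 FPKM in Ctrl. OEx 1 and 2 were above all other mice, with 121 and 142 reads, whereas OEx 3 held 5 reads and each Ctrl mouse between 3 and 10 reads. The difference did not pass the test (log2 fold change 1.21, SE 0.520, limma FDR 0.0776). Without OEx 3 it was called higher (1.85, FDR 2.08e-04), so that this mouse decided the call. Mmp12, the macrophage elastase, was under the filter with 8, 11 and 7 reads in OEx and 32, 19 and 35 reads in Ctrl. It was lower in OEx with limma-voom (log2 fold change -2.22, SE 0.416, FDR 0.00264). The leukocyte marker sum was highest in OEx 1 and 2 and lowest in OEx 3, and most of it was Lyz2 in every mouse but OEx 3. Of the 7 leukocyte markers that limma-voom tested, 1 was called higher (Ptprc) and none lower. The part of these cells in the Mmp12 value was not tested.

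The promoters of Mmp7 and Mmp3 are shown because these genes of the cluster share a sequence feature and differed in their values. Capitals mark TGANTCA, the AP-1 motif, which reads the same on both strands. The Mmp7 window shown is chr9:7691840-7692139 and the Mmp3 window is chr9:7445572-7445871, both on the plus strand of GRCm38.p6 from RefSeq. In them the motif begins at position -63 and -46 from the start. A second Mmp7 window, chr9:7692091-7692390, held no AP-1 motif and 1 RBPJ core motif, and is not shown.

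Mmp7: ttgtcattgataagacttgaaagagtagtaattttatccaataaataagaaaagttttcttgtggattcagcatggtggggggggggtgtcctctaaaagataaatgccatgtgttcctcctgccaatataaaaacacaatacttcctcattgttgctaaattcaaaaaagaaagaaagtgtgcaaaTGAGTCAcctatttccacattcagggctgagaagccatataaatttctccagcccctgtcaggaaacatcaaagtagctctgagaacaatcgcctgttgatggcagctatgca

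Mmp3: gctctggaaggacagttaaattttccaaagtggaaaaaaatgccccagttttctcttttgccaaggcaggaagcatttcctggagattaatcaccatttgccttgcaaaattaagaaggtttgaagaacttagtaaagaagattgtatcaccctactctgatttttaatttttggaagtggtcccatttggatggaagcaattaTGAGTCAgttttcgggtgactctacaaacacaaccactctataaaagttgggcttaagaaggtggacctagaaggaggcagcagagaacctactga

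The AP-1 letters were in 8 of the 35 member promoters, which belong to 32 of the 46 genes, and in 7.81% of 32851 mouse promoters. All 8 genes lie in the chromosome 9 cluster (Mmp13, Mmp12, Mmp1b, Mmp3, Mmp1a, Mmp10, Mmp20 and Mmp7), and they include Mmp7 called lower, Mmp3 not called and Mmp1b listed at 0. The motif therefore occurred in genes at very different levels.

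**Figure D3:**
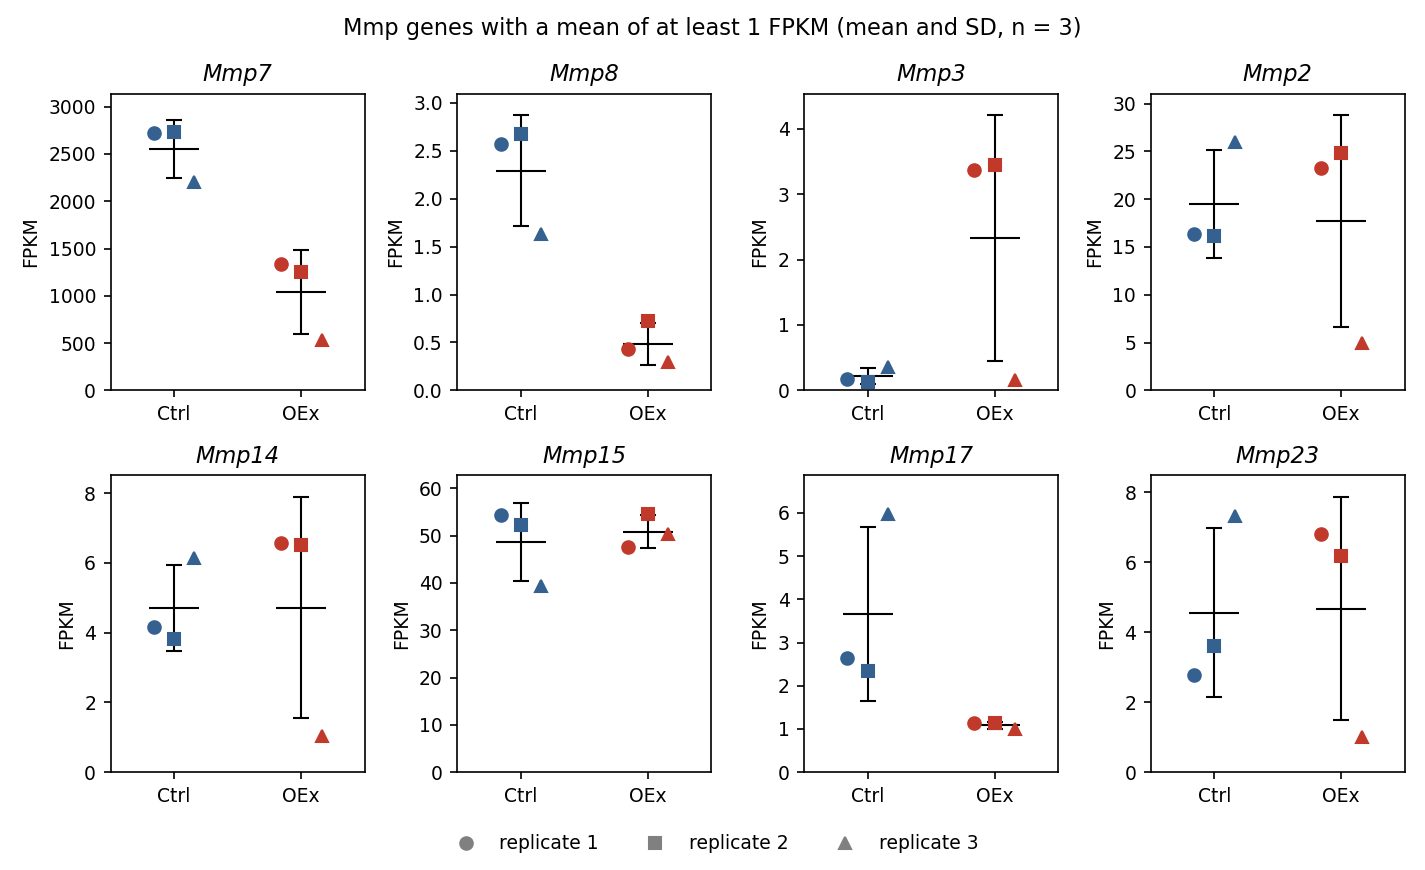
FPKM of the 8 tested Mmp genes in each of the 3 OEx and 3 Ctrl mice, 1 linear axis from 0 for each gene and 1 point per mouse, with bars for the mean and SD (n = 3). Mmp7 lay at 531 to 1332 FPKM in OEx and 2203 to 2730 FPKM in Ctrl, and Mmp2, Mmp14 and Mmp23 in OEx 3 stood below every other mouse.

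Among the membrane-type MMPs, which act at the cell surface, Mmp15 was the most abundant. It was read at 47.6, 54.6 and 50.4 FPKM in OEx and at 54.5, 52.3 and 39.3 FPKM in Ctrl, and the groups overlapped (log2 fold change 0.074, SE 0.140, limma FDR 0.659). Mmp17, a glycosylphosphatidylinositol-anchored enzyme, was read at 1.13, 1.13 and 0.996 FPKM in OEx and at 2.64, 2.35 and 5.98 FPKM in Ctrl. It was lower in all OEx mice (log2 fold change -1.08, SE 0.278, limma FDR 0.0126), and without Ctrl 3, the mouse with the highest smooth muscle sum, the change was -0.74 (FDR 0.00207), under the 2-fold criterion.

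Mmp2 (gelatinase A), which cuts denatured collagen and collagen IV, was read at 23.3, 24.9 and 4.98 FPKM in OEx and at 16.3, 16.1 and 26.0 FPKM in Ctrl. Its activator Mmp14 was read at 6.58, 6.51 and 1.05 FPKM in OEx and at 4.17, 3.82 and 6.13 FPKM in Ctrl. Mmp23, an enzyme with a cysteine array in place of the hemopexin domain, was read at 6.81, 6.19 and 1.02 FPKM in OEx and at 2.77, 3.60 and 7.31 FPKM in Ctrl. In each of these genes OEx 3 was the lowest of the 6 mice and OEx 1 and 2 were above Ctrl 1 and 2. None was called: the log2 fold changes were -0.36 for Mmp2 (limma FDR 0.593), -0.20 for Mmp14 (FDR 0.744) and -0.12 for Mmp23 (FDR 0.868). Without OEx 3 they were 0.32, 0.42 and 0.52 and also not called.

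The difference of OEx 3 from its group ran through much of the family. In 9 of the 16 tested members OEx 3 was under 0.5 times the mean of OEx 1 and 2, whereas this held for 6.15% of all tested rows. The ratio of the mean of OEx 1 and 2 to OEx 3 was 22.2 for Mmp3, 5.93 for Timp1, 4.83 for Mmp2 and 2.44 for Mmp7. In Timp4 and Timp3 OEx 3 was above that mean (ratios of OEx 3 to the mean of 1.502 and 1.36), and in Mmp15 it was close to it (0.988). The same shortfall was present in all 8 fibroblast markers, with ratios of OEx 3 to that mean from 0.0997 (Lum) to 0.425 (Pdgfrb). Lum, a collagen-binding proteoglycan, was at 16.7, 14.2 and 1.54 FPKM. It was also present in all 4 tested leukocyte markers and 10 of 13 tested substrates, but in 1 of 8 smooth muscle markers and 0 of 6 tested ADAM sheddases. The part of this shortfall in the member values was not tested.

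**Figure D4:**
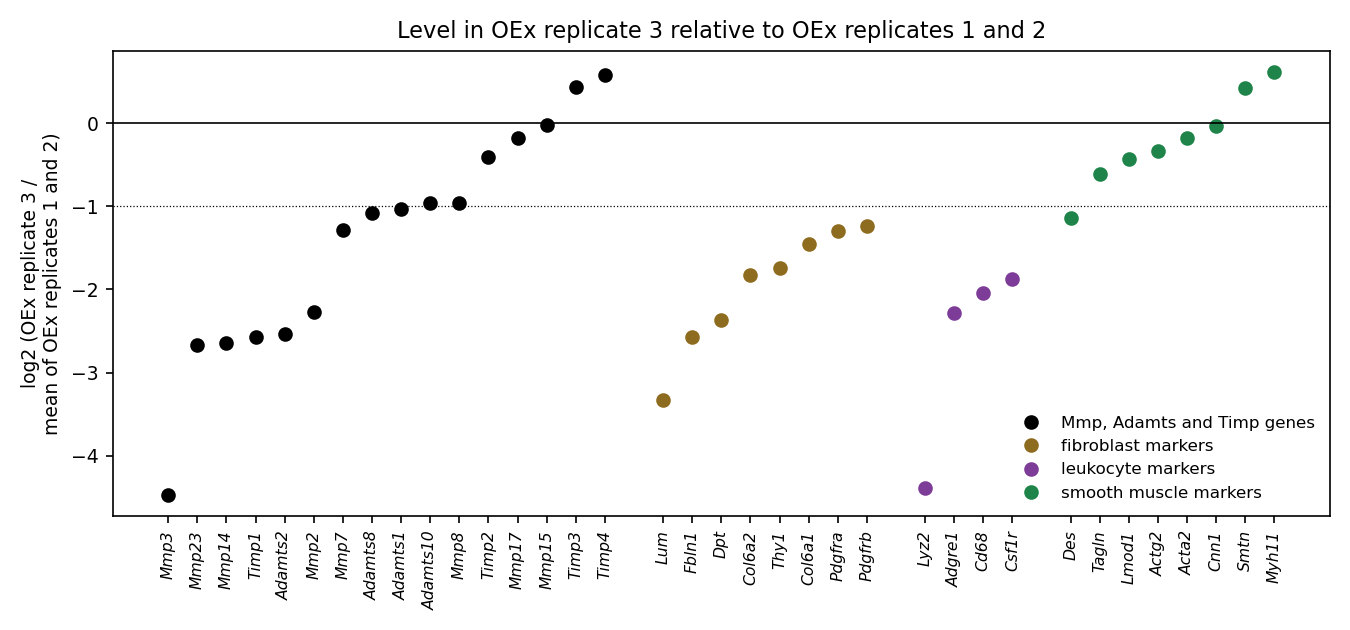
Log2 ratio of the FPKM of OEx 3 to the mean FPKM of OEx 1 and 2, 1 point per gene, for the tested members and for tested markers of fibroblasts, leukocytes and smooth muscle, with a dotted line at a ratio of 0.5. As linear ratios, Timp4 (1.502) and Timp3 (1.36) lay above 1 (0 on the axis), whereas Mmp3 (0.0451), Timp1 (0.169) and Mmp2 (0.207) lay far below. All 8 fibroblast markers and all 4 tested leukocyte markers lay below the dotted line.

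None of the 4 tested ADAMTS genes was called. Adamts8, a proteoglycanase, came nearest, with 0.848, 0.872 and 0.408 FPKM in OEx and 1.61, 1.22 and 2.95 FPKM in Ctrl. The groups did not overlap, and the change was under 2-fold on this scale (log2 fold change -0.75, SE 0.243, limma FDR 0.0311). On recovered reads it was -1.42 and was called lower (limma-voom FDR 0.0225). Adamts10, which acts on fibrillin microfibrils, had a mean of 2.24 ± 0.752 FPKM in OEx and 2.23 ± 1.07 FPKM in Ctrl (SD, n = 3). Adamts2, the procollagen N-propeptidase, had 1.52 ± 1.01 FPKM in OEx and 1.38 ± 0.698 FPKM in Ctrl (SD, n = 3). Adamts1, a proteoglycanase, had 1.31 ± 0.469 FPKM in OEx and 1.52 ± 0.820 FPKM in Ctrl (SD, n = 3). For these last genes the log2 fold changes were 0.022, 0.027 and -0.10, with limma FDR values of 0.949, 0.954 and 0.752.

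The other 30 members were under 1 FPKM on average. Reads could be recovered from the FPKM values and gene lengths, and limma-voom on rows with a mean of at least 10 reads tested 19 of the 30, with 39.0% of all 15601 rows called (21.5% higher, 17.5% lower). Of the 19, Adamts6 was called higher and Mmp28, Mmp24 and Mmp12 were called lower. Without OEx 3, 12 of the 19 were called, 8 higher and 4 lower, beside 41.5% of all rows in the same fit (24.2% higher, 17.3% lower). Over all 35 members that this test covered, 2 were called higher and 8 lower.

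Adamts6, a relative of Adamts10, held 200, 202 and 190 reads in OEx and 44, 31 and 35 reads in Ctrl. All OEx mice, OEx 3 included, were above all Ctrl mice (log2 fold change 1.85, SE 0.237, limma-voom FDR 4.31e-04). Mmp28 (epilysin), an MMP of epithelia, held 9, 28 and 10 reads in OEx and 51, 56 and 57 reads in Ctrl, with no overlap between the groups (log2 fold change -2.50, SE 0.392, limma-voom FDR 0.00114). It overlaps 1700020L24Rik, which was read at 0.334, 0.583 and 0.106 FPKM in OEx and at 1.14, 1.25 and 2.13 FPKM in Ctrl, so a gene at a similar level on the FPKM scale moved in the same direction there.

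Mmp24, a membrane-type MMP, held 3, 4 and 6 reads in OEx and 42, 53 and 34 reads in Ctrl (log2 fold change -3.77, SE 0.546, limma-voom FDR 7.79e-04). It overlaps BC029722, which was read at 9.47, 8.56 and 9.47 FPKM in OEx and at 37.6, 39.6 and 25.8 FPKM in Ctrl. BC029722 thus moved in the same direction, and since counting by strand is not stated, reads of the overlap cannot be assigned to either gene, for Mmp24 as for Mmp28.

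**Figure D5:**
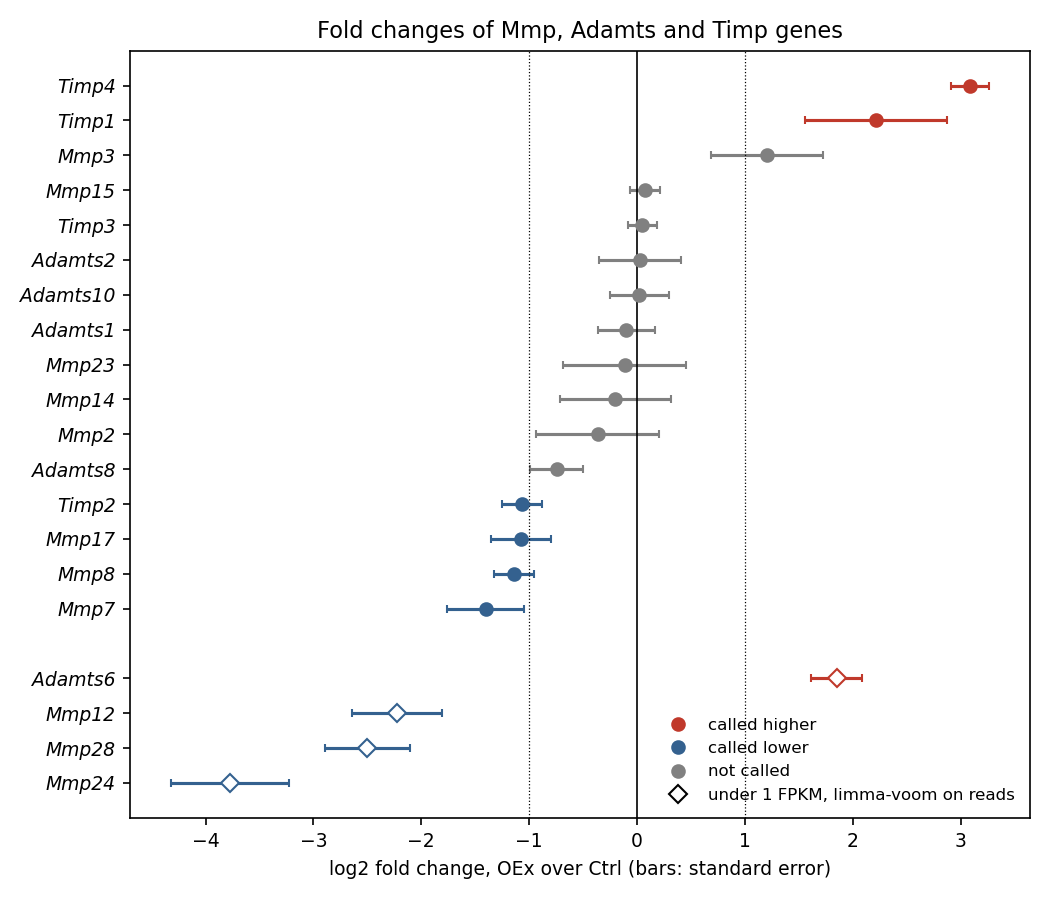
Log2 fold change (OEx minus Ctrl) with its SE for the 16 tested members (filled circles, limma) and the 4 low members called with limma-voom on reads (open diamonds), coloured by call, with dotted lines at the 2-fold criterion. Timp4 (3.09) and Timp1 (2.21) were called higher, Mmp7, Mmp8, Mmp17 and Timp2 (-1.40 to -1.07) lower, and Mmp3 (1.21) had a wide SE of 0.520.

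Of the 19 low members tested with limma-voom, 15 were not called. In 10 of the 19, OEx 3 was under 0.5 times the mean of OEx 1 and 2, and none of these 10 was called. In 4 of the 19 it was above that mean, among them Mmp16 and Adamts17, which were not called (ratios of 2.24 and 2.08). Over all rows tested with limma-voom only, 20.5% had OEx 3 under 0.5 times that mean. Mmp19, an MMP of basement membranes, was at 1.57, 1.58 and 0.220 FPKM in OEx and at 0.656, 0.219 and 0.484 FPKM in Ctrl. Adamts15, a proteoglycanase, was at 1.19, 1.46 and 0.230 FPKM in OEx and at 0.316, 0.335 and 0.699 FPKM in Ctrl. In both genes OEx 1 and 2 were above all Ctrl mice and OEx 3 was not.

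The highest value of the other low members not called lay in OEx 1 or 2 for Mmp11 (1.39 FPKM), Adamts5 (0.609 FPKM), Adamts4 (0.386 FPKM), Adamts12 (0.243 FPKM), Adamts3 (0.225 FPKM), Adamts20 (0.194 FPKM) and Adamts19 (0.150 FPKM). It lay in OEx 3 for Mmp16 (0.192 FPKM) and in Ctrl for Adamts17 (0.831 FPKM), Mmp9 (gelatinase B, 0.786 FPKM), Adamts7 (0.639 FPKM), Adamts14 (0.532 FPKM) and Adamts9 (0.276 FPKM). The remaining 11 members were under both filters and were not tested, with at most 0.243 FPKM and 16 reads in any mouse. Among them Mmp20, an enamel protease, held 2, 0 and 0 reads in OEx and 10, 10 and 3 reads in Ctrl. The collagenase Mmp13 held 0, 2 and 2 reads in OEx and 5, 4 and 3 reads in Ctrl. Both had at most 10 reads in any mouse, and no difference between the groups is read from such counts.

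The partners of these enzymes were examined in lists. Of 21 activators and regulators, limma tested 15, called none higher and called 2 lower (Furin and Spock2). Limma-voom tested 19, called none higher and called 4 lower, which were these 2 with Reck and Pcsk6. Reck had a mean of 0.819 FPKM in OEx and 2.43 FPKM in Ctrl. Its log2 fold change was -0.89 (limma FDR 0.00485), under the 2-fold criterion, and -1.53 with limma-voom (FDR 0.00284). Of all tested rows, 28.2% were called with limma and 39.0% with limma-voom. Furin, the proprotein convertase that activates membrane-type MMPs and ADAMTS precursors, was at 7.24, 7.76 and 8.74 FPKM in OEx and at 25.6, 26.6 and 15.95 FPKM in Ctrl (log2 fold change -1.38, limma FDR 9.46e-04), and scaled to library totals it was -0.55 and not called. Spock2, a matrix proteoglycan, was at 0.734, 0.996 and 2.09 FPKM in OEx and at 5.97, 5.86 and 10.6 FPKM in Ctrl (log2 fold change -1.90, limma FDR 0.00123). Every OEx mouse was below every Ctrl mouse for both.

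Of 7 ADAMTS-like proteins, which resemble ADAMTS proteases without the protease domain, 3 were tested and Papln was called lower (log2 fold change -1.36, limma FDR 7.51e-04), which was -0.94 and not called when scaled to library totals. Limma-voom tested all 7 and called Papln and Adamtsl5 lower. Of 21 substrates, 13 were tested and Fn1, which encodes fibronectin, was called higher. Limma-voom tested 16, and called Fn1 higher and Vwf lower. Fn1 was at 32.9, 35.4 and 9.68 FPKM in OEx and at 6.22, 6.41 and 10.5 FPKM in Ctrl (log2 fold change 1.47, limma FDR 0.0322), and OEx 3 was below Ctrl 3. Its call was lost when OEx 1, OEx 2, Ctrl 1 or Ctrl 2 was left out (FDR 0.0892 to 0.0966). Of 9 ADAM sheddases, 6 were tested and Adam28 was called higher, at 3.48, 3.68 and 3.402 FPKM in OEx and 0.923, 0.950 and 0.924 FPKM in Ctrl (log2 fold change 1.23, limma FDR 8.38e-05). Limma-voom tested all 9 and called Adam28 and Adam8 higher (Adam8 log2 fold change 2.91, limma-voom FDR 0.00875). The Adam28 values of the 3 OEx mice, unlike those of Fn1, were close to each other.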

How the data were processed

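RNA-seq of total RNA from the anterior prostate (3 OEx and 3 Ctrl mice, 1 library each) was deposited as 1 table of FPKM values per mouse. The authors made these FPKM values from Illumina reads, and the submitters' processing notes name CASAVA, HISAT2 2.0.5, featureCounts 1.5.0-p3 and StringTie 1.3.3b. The genome build, annotation, scaling and strand setting are not given in the sources used here. Each table held 55076 rows, of which 544 had no gene symbol (0.632 to 1.21% of the FPKM sum) and were left out.

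Groups were taken from the labels. Tests used limma 3.58.1 (R 4.3.3, eBayes with trend) on log2(FPKM + 1), for rows that averaged 1 FPKM or more, with Benjamini-Hochberg FDR over all tested rows. The fold change on this scale understates changes of low genes. Reads were recovered from FPKM and the exon lengths of GRCm38 genes, given for 53710 rows, with 96.9 to 97.5% of the values under 1000 reads whole within 0.05, and tested with limma-voom with the authors' totals as library sizes. Scripts were tested on simulated data. With 3 mice a group, exact permutation p-values reach 0.1 at the lowest. The 3-read floor covers counting error only.

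Every called member and every member with a mean of at least 10 FPKM is given per mouse, other tested members by group values and members under the filter by their highest value or, for those in neither test, mainly by range. From each partner list the called genes are named. Values per mouse of Timp3, Mmp14, Mmp23, Mmp3, Adamts8, Mmp19, Adamts15, Mmp20, Mmp13, BC029722, 1700020L24Rik and Lum were added after they were seen. The members and lists were chosen with earlier results of these data known. Alternatives changed the pseudocount, filter, scaling, model, replicate block and mice included.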

Additional observations from a re-analysis of the deposited data

How the results depend on the processing

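Timp4 remained called higher in all 18 alternatives run. The limma-voom calls of Adamts6, Mmp24, Mmp28 and Mmp12 also remained in their 8, where library totals were sums of reads. Scaled to library totals, and to totals without the top 20 rows, 2 members were called (Timp4 and Timp1) and none lower, with medians of 0.52 and 0.36 for the members and of 0.66 and 0.46 for all rows. All rows were then called 4367 higher and 446 lower, and 3400 and 656. Under these scalings Mmp2 (0.48 and 0.25), Mmp14 (0.51 and 0.32), Mmp23 (0.59 and 0.40) and Adamts1 (0.42 and 0.28) turned positive. With upper-quartile scaling Mmp15 (-0.080), Timp3 (-0.090), Adamts2 (-0.055) and Adamts10 (-0.082) turned negative. Adamts2 was also negative with a pseudocount of 0.1 (-0.068), with limma-voom (-0.074) and, in an alternative chosen after seeing the data, with replicates 1 and 2 averaged (-0.29), where Adamts10 was -0.21 and the Timp1 FDR was 0.139. All genes called numbered 2214 with a filter of 5 FPKM, 8459 without the fold criterion and 6085 with limma-voom, which called 10 members. Leaving out 1 mouse gave 4 to 5 members called, 3496 to 3615 genes called and a member median of -0.32 to 0.16. The same fits gave Adamts1 -0.24 to 0.15, Adamts10 -0.12 to 0.28, Adamts2 -0.18 to 0.42, Mmp14 -0.52 to 0.42, Mmp15 -0.071 to 0.16, Mmp2 -0.73 to 0.32, Mmp23 -0.46 to 0.52 and Timp3 -0.082 to 0.12. Same-numbered mice did not deviate together (r = -0.201, -0.192 and -0.314) and no mouse correlated best with its own number. With the replicate number as a block 5 members were called, and Timp1 had an FDR of 0.0512. The cause of these changes was not tested. Depth kept the 11 members with at most 16 reads out of both tests, and 3 mice a group limit all tests.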
